A study of Mus musculus with 12 samples.

Results

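The circadian clock and output genes described here were Dbp, Tef, Hlf, Nr1d1, Nr1d2, Per1, Per2, Per3, Cry2 and Clock, 10 of the 18193 genes measured in sorted mouse skin fibroblasts. They were picked by name, with earlier results of these data known. Every probe set whose annotation gives exactly 1 symbol, that of one of these genes, was kept, which gave 25 of 34945 probe sets. Each gene's main value came from its brightest probe set, averaged over all 12 arrays, so the height of that level is part of the choice and not a result. For all 10 genes the values as deposited gave the same probe set.

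RNA from 12 samples was hybridised to Affymetrix mouse expression arrays, 1 array per sample and 4 per group. Pap arrays held fibroblasts from papilloma-associated back skin of InvEE mice, InvEE arrays held fibroblasts from inflamed InvEE back skin, and WT arrays held fibroblasts from normal wild-type back skin. InvEE mice express activated MEK1, a kinase of the MAP kinase pathway, under the involucrin promoter, which drives expression in the differentiating layers of the epidermis and not in the dermal cells measured here. All groups were 7-week-old males with a PDGFRα-H2B-eGFP allele, which places a fluorescent histone in nuclei of cells that express this fibroblast receptor, and GFP-positive live cells were sorted after an overnight trypsin step in the cold and a collagenase digest. RNA was amplified 1 time with a NuGEN Pico kit. The labels do not say that arrays of 1 group come from separate animals, so the p-values rest on the scatter among samples, part of which may be technical. The hour at which skin was collected is not given in the labels, so no test could take it into account.

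Markers of fibroblasts, the labelled cell type, were high on every array. The mean of 7 fibroblast genes lay between 13.20 and 13.30 on the log2 scale in Pap arrays, between 12.96 and 13.17 in InvEE arrays and between 13.02 and 13.17 in WT arrays. Medians of the deposited arrays lay between 6.54 and 6.66. In each group 1 array stood apart from the rest. Across all genes its median correlation with arrays of its own group was 0.893 for Pap array 4, against 0.955 to 0.958 for the other Pap arrays. That of InvEE array 3 was 0.961, against 0.985 for the other InvEE arrays, and that of WT array 4 was 0.929, against 0.968 to 0.97 for the other WT arrays. The same 3 arrays had the highest 3′ minus 5′ difference of Gapdh within their groups, a measure that grows as RNA is shortened, at 3.76, 3.37 and 2.28. Results that rest on these arrays are given with and without them.

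In the mouse clock, CLOCK and its partner BMAL1 (gene Arntl) bind E-boxes and activate the Per, Cry, Nr1d1, Nr1d2 and Dbp genes. PER and CRY proteins then repress CLOCK and BMAL1, while the REV-ERB receptors made from Nr1d1 and Nr1d2 repress Arntl through ROR elements. DBP, TEF and HLF carry the rhythm to output genes through D-boxes. Fibroblasts hold such a clock, and over the day the RNAs of Dbp, Nr1d1 and the Per genes run roughly opposite to that of Arntl, so their level in a tissue depends on the hour of sampling.

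Start-site windows of the RefSeq mouse annotation (build GRCm38.p6), each from 250 bases before to 50 after a gene's start, were searched on both strands for the E-box CACGTG, for the D-box TTATGTAA or TTACGTAA, and for the ROR element TAGGTCA or TGGGTCA. Of the 10 genes 9 had a window, Per2 being the one without. Of 32851 windows over all genes, 7.15% held the E-box, 1.06% the D-box and 6.45% the ROR element. Tef and Per1 held an E-box, 127 and 166 bases before their starts, and Per3 held a D-box at 205 and again at 158 bases before its start. A second window of Tef also held an E-box, and no ROR element was found in the 9 genes. The windows of these genes, and those of Dbp and Nr1d1, which had the largest differences of the 10 main probe sets between Pap and WT arrays, are shown 5′ to 3′ with the matches in capitals. Per1 lies at chr11:69098699-69098998 on the plus strand, Tef at chr15:81802423-81802722 on the plus strand and Per3 at chr4:151044616-151044915 on the minus strand. Dbp lies at chr7:45704997-45705296 on the plus strand and Nr1d1 at chr11:98775328-98775627 on the minus strand. A match describes these letters and is not a measured binding site.
Per1: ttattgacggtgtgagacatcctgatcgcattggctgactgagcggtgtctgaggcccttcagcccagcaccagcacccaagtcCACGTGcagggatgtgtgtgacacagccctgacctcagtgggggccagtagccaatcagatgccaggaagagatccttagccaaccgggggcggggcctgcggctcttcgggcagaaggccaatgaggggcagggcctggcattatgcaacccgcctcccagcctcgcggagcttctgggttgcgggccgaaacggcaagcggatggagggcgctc
Tef: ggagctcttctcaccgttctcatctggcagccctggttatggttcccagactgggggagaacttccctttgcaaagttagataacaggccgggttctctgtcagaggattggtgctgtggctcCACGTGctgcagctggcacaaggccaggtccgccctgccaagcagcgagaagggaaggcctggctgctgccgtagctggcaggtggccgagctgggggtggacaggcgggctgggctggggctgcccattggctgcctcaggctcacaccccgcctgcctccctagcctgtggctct
Per3: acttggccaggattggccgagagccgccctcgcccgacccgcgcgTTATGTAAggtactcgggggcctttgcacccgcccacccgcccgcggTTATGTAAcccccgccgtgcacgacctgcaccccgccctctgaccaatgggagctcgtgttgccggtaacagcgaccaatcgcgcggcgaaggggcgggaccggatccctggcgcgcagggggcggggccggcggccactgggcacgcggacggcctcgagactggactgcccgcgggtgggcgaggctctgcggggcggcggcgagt
Dbp: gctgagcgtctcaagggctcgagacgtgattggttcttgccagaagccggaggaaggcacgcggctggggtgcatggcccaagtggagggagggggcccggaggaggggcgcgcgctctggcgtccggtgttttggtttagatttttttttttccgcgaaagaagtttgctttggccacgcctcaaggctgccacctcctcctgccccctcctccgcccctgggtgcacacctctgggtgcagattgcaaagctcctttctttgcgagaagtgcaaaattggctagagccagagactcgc
Nr1d1: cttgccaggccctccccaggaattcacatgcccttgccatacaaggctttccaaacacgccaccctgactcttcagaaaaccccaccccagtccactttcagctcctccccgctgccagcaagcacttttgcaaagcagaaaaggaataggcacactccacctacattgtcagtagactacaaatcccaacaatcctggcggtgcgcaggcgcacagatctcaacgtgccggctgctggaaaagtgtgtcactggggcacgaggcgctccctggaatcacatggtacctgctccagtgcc

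The first comparison asked how the clock genes of fibroblasts in papilloma-associated skin differ from those in normal skin. Of the 10 genes 5 were called lower in Pap arrays: Dbp, Tef, Per1, Per2 and Cry2. None was called higher. Calls needed a limma p under 0.05 after Benjamini-Hochberg adjustment across the whole gene table, by which 4.8% of all genes were called lower and 4.85% higher. In 7 of the 10 genes every Pap array lay below every WT array, against 6.56% of all genes. The median difference of the 10 genes was -1.51 on the log2 scale, where a difference of -1 is a 2-fold lower level, and that of all genes was 0.04. Since the 10 genes were chosen with earlier results of these data known, such counts describe them and do not test them as a set. Fewer cells of one type and less RNA per cell cannot be told apart in such bulk samples.

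**Figure D1:**
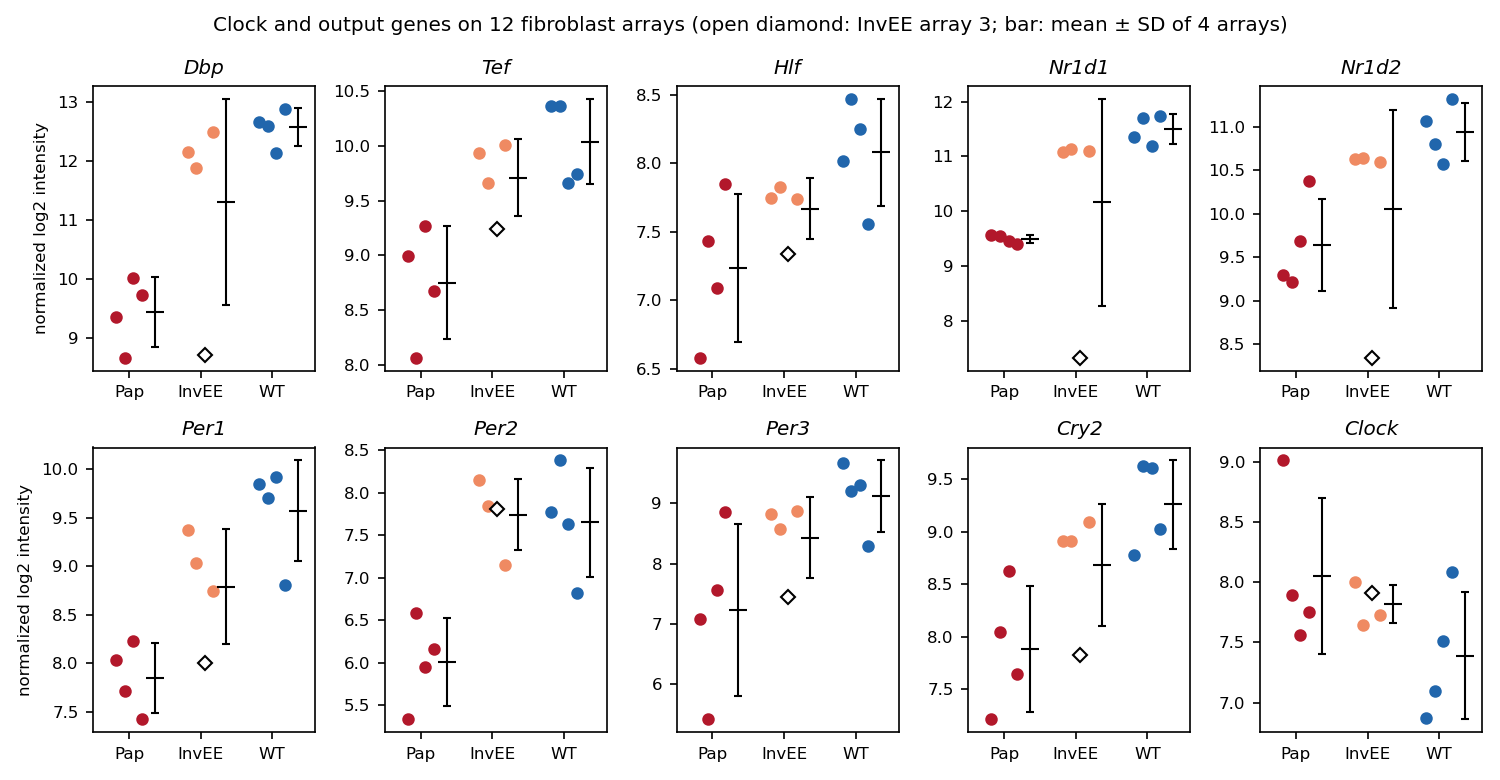
Normalized log2 intensity (vertical axes, which do not start at 0) of the 10 genes on each array of the Pap, InvEE and WT groups. Points are arrays and bars to their right are mean ± SD of 4 arrays. The open diamond is InvEE array 3, which had the lowest InvEE value in 8 of the 10 genes and in 30.6% of all genes. Dbp lay between 8.67 and 10.02 in Pap arrays, below all WT arrays.

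Dbp, a PAR bZIP transcription factor and one of the strongest clock outputs, had 9.36, 8.67, 10.02 and 9.73 log2 units in Pap arrays 1 to 4, against 12.66, 12.60, 12.13 and 12.88 in WT arrays 1 to 4. All Pap values lay more than 2 units under the lowest WT value. The difference was -3.12 ± 0.67 (SE, n = 4 arrays per group; limma adjusted p = 0.0114), or 8.71-fold lower in Pap, the 40th largest fall of 18193 genes. Its other probe set gave -3.68 ± 0.69 (limma adjusted p = 0.00628 over all probe sets).

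Tef, which encodes a close relative of DBP, had 8.99, 8.06, 9.27 and 8.67 in Pap arrays and 10.37, 10.37, 9.66 and 9.74 in WT arrays. The groups did not overlap, with a gap of under 1 unit. The difference was -1.29 ± 0.28 (limma adjusted p = 0.013), and its 2 dimmer probe sets gave larger falls of -2.81 ± 0.44 and -2.85 ± 0.40, both called. Hlf, the third member of this family, had 6.58, 7.43, 7.09 and 7.85 in Pap arrays and 8.02, 8.47, 8.25 and 7.56 in WT arrays. Pap array 4 and WT array 4 crossed over, and the difference of -0.84 ± 0.27 was not called (limma adjusted p = 0.0748). It was called without Pap array 4 (-1.04, limma adjusted p = 0.0231) or without WT array 4 (-1.01, limma adjusted p = 0.0396). On the other Hlf probe set the Pap arrays had 5.94, 5.47, 5.71 and 5.23 and the WT arrays 8.46, 9.22, 8.32 and 5.61, a difference of -2.31 ± 0.59 that was called (limma adjusted p = 0.0312), with WT array 4 alone inside the Pap range.

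Nr1d1, which encodes REV-ERBα, had 9.56, 9.54, 9.45 and 9.41 in Pap arrays and 11.35, 11.71, 11.19 and 11.74 in WT arrays. The Pap arrays had an SD of only 0.07 and lay far below all WT arrays. The difference of -2.01 ± 0.68 was still not called (limma adjusted p = 0.0915). The fit shares 1 spread over the 3 groups, and the InvEE arrays had an SD of 1.89. Without InvEE array 3 the same difference had a limma adjusted p of 1.83e-05. Nr1d2, which encodes REV-ERBβ, had 9.30, 9.21, 9.69 and 10.38 in Pap arrays and 11.07, 10.80, 10.57 and 11.32 in WT arrays. Here too the groups did not overlap, and the difference of -1.30 ± 0.47 was not called over all 12 arrays (limma adjusted p = 0.115) but was without InvEE array 3 (limma adjusted p = 0.00901).

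Among the repressors, Per1, an early-response gene as well as a clock gene, had 8.03, 7.71, 8.23 and 7.42 in Pap arrays and 9.85, 9.70, 9.92 and 8.81 in WT arrays. Its difference of -1.72 ± 0.32 had the lowest adjusted p of the 10 genes (limma adjusted p = 0.00542). Per2 had 5.33, 6.58, 5.95 and 6.16 in Pap arrays and 7.77, 8.38, 7.63 and 6.82 in WT arrays. The lowest WT array lay just above the highest Pap array, and the difference was -1.65 ± 0.34 (limma adjusted p = 0.0104). Its 2 other probe sets gave -0.37 ± 0.29 and -0.82 ± 0.30, neither called, so among single probe sets the call of Per2 rests on 1. With the mean of all its probe sets the call was kept. The Pap mean on the main probe set, 6.01, was under 6.16, the limit of the dimmest 40% of probe sets.

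Per3 had 7.09, 5.42, 7.56 and 8.85 in Pap arrays and 9.67, 9.20, 9.31 and 8.29 in WT arrays. Pap array 4 alone lay inside the WT range, and the difference of -1.89 ± 0.60 was not called (limma adjusted p = 0.0715), though without Pap array 4 it was (-2.43, limma adjusted p = 0.0139). Of its 5 dimmer probe sets 4 were called lower, with differences between -2.51 and -0.98, and the fifth stood at -1.16 ± 0.58. Cry2, the cryptochrome repressor, had 7.21, 8.04, 8.63 and 7.64 in Pap arrays and 8.78, 9.63, 9.61 and 9.03 in WT arrays, with Pap array 3 just under WT array 1. Its difference was -1.38 ± 0.35 (limma adjusted p = 0.0267), a call that was lost when Pap array 1 or 4 or WT array 2 or 3 was left out (limma adjusted p between 0.0565 and 0.0763).

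Clock, which encodes the activator itself, was the one of the 10 genes with a positive difference. It had 9.01, 7.89, 7.56 and 7.75 in Pap arrays and 6.87, 7.10, 7.51 and 8.08 in WT arrays, which overlapped, a difference of 0.66 ± 0.32 that was not called (limma adjusted p = 0.247). Its 3 other probe sets gave -0.28, 0.30 and 0.40. Over all probe sets of the 10 genes, 13 of 25 were called lower and 0 higher in Pap arrays, against 4.35% of all probe sets called lower. All 3 positive differences were those of Clock.

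**Figure D2:**
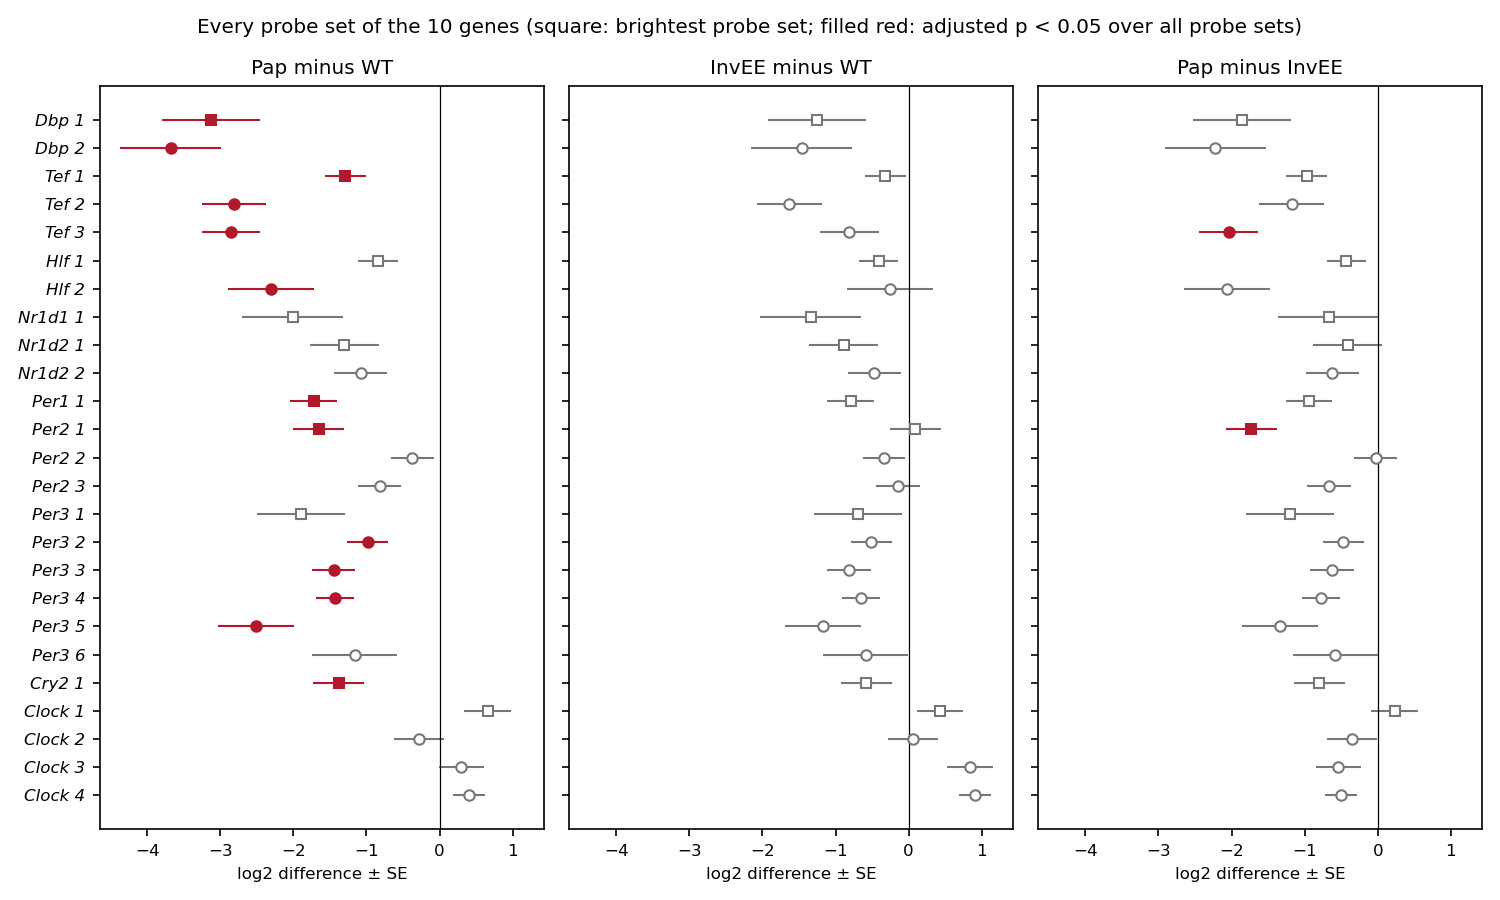
Log2 difference ± SE (horizontal axes) of each of the 25 probe sets for Pap minus WT, InvEE minus WT and Pap minus InvEE, numbered from the brightest within each gene. Squares are main probe sets and filled red marks are called: 13 in the first panel, 0 in the second and 2 in the third.

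Measures of RNA quality and of other cells moved with this comparison. The Gapdh difference lay between 2.29 and 3.76 in Pap arrays and between 1.59 and 2.28 in WT arrays. With it as a covariate all 10 genes kept their sign, but the differences of Dbp, Tef, Per2 and Cry2 became -2.24, -1.10, -1.52 and -0.89 and lost their calls (limma adjusted p between 0.0713 and 0.21), and Per1 alone remained called (-1.11, limma adjusted p = 0.0284). Under the same covariate Nr1d1 stood at -0.82 (limma adjusted p = 0.547) and Nr1d2 at -0.89 (limma adjusted p = 0.457). Without InvEE array 3, Pap array 4 and WT array 4, a setting chosen after seeing the data, 9 of the 10 genes were called lower, all but Clock, where 12.6% of all genes were called in either direction. The mean of 10 keratinocyte markers lay between 6.68 and 8.36 in Pap arrays and between 6.33 and 6.85 in WT arrays, with Krt14 and Dsp called higher. Krt1, Perp, Cdh1 and Krt5 stood between 0.48 and 1.92 and Krt15, Krt10, Epcam and Trp63 between -0.55 and -0.21, none called. The mean of 6 pericyte and smooth muscle markers lay between 6.97 and 7.63 in Pap arrays and between 8.15 and 8.47 in WT arrays, with Kcnj8 (-4.01 ± 0.27) and Abcc9 (-2.12 ± 0.58) called lower. Des, Notch3 and Myh11 stood between -0.74 and -0.02 and Rgs5 at 0.63, none called. The part of these cells in the clock values was not tested. Of 8 macrophage and leukocyte markers only Csf1r was called, lower in Pap, and none of 5 endothelial, 3 adipocyte, 1 Schwann cell or 3 skeletal muscle markers was called. Of 7 fibroblast markers only Pdgfra was called, higher in Pap (0.93 ± 0.25, limma adjusted p = 0.0349), where 4.85% of all genes were called higher.

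The second comparison asked how inflamed InvEE skin differs from normal skin. None of the 10 genes was called between InvEE and WT arrays by limma, where 0.533% of all genes were called in either direction. Per1 was the only one with an unadjusted p under 0.05, a mark that 15.6% of all genes reached. Nr1d1 was the only one whose InvEE arrays all lay below the WT arrays, against 10.2% of all genes. The median difference of the 10 genes was -0.64, against -0.09 for all genes, and 0 of 25 probe sets was called, against 0.415% of all probe sets.

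The InvEE arrays were not alike. Dbp had 12.15, 11.88, 8.72 and 12.49 in InvEE arrays 1 to 4. Array 3 lay within the Pap range, arrays 1 and 4 inside the WT range and array 2 just below it. Nr1d1 had 11.09, 11.13, 7.32 and 11.10, where array 3 was lower than any Pap array. Nr1d2 had 10.63, 10.64, 8.34 and 10.59, again with array 3 below all Pap arrays. The fitted InvEE minus WT differences were -1.26 ± 0.67 for Dbp, -1.34 ± 0.68 for Nr1d1 and -0.89 ± 0.47 for Nr1d2, with limma adjusted p between 0.364 and 0.379. Without InvEE array 3 they were -0.40, -0.39 and -0.32 (limma adjusted p between 0.344 and 0.636).

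The other genes were spread less widely. Per1 had 9.37, 9.03, 8.0 and 8.74 in InvEE arrays, a difference from WT of -0.79 ± 0.32 (limma adjusted p = 0.27). Cry2 had 8.91, 8.91, 7.82 and 9.09, and Per3 had 8.82, 8.58, 7.45 and 8.87, each with array 3 lowest. Tef had 9.94, 9.66, 9.24 and 10.01 and Hlf had 7.75, 7.83, 7.34 and 7.74, also lowest in array 3. Per2 had 8.15, 7.84, 7.81 and 7.15, all inside the WT range, and Clock had 8.0, 7.64, 7.91 and 7.73, so neither was lowest in array 3. Of 10 keratinocyte markers 2 were called higher in InvEE arrays, Krt15 and Perp, and the list mean was 7.89 to 9.15 in InvEE arrays, against 6.33 to 6.85 in WT arrays. The pericyte gene Kcnj8 was called lower (-1.86 ± 0.27). Their part in the clock values was not tested.

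By group means, 8 of the 10 genes were ordered WT over InvEE over Pap, and in none of the 8 was either pair of neighbours called different by limma. Per2 was ordered InvEE over WT over Pap, at 7.74 ± 0.42, 7.65 ± 0.64 and 6.01 ± 0.52 (SD, n = 4 each), where the first pair did not differ beyond its spread. Clock was ordered Pap over InvEE over WT, at 8.05 ± 0.65, 7.82 ± 0.16 and 7.39 ± 0.53, and no neighbours in that order differed beyond their spread. For Dbp the means were 9.45 ± 0.59 in Pap, 11.31 ± 1.74 in InvEE and 12.57 ± 0.32 in WT arrays.

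In the third comparison, of papilloma-associated with inflamed InvEE skin, Per2 was the 1 gene of 10 called, lower in Pap. Of all genes 3.04% were called lower and 3.67% higher in Pap by limma. Per2 was also the 1 gene whose Pap arrays all lay below the InvEE arrays, against 6.66% of all genes. Its difference was -1.73 ± 0.34 (limma adjusted p = 0.0118). The call rests on the same single probe set as that against WT, since its others gave -0.03 ± 0.29 and -0.67 ± 0.30, neither called, and with the spike control level of the arrays as a covariate it was lost (-1.34, limma adjusted p = 0.278), as it was with the mean of all 3 probe sets (-0.81, limma adjusted p = 0.0531). The mean of these 12 spike control probe sets, which read sequences added to every sample, lay between 9.83 and 12.57 in Pap arrays, between 7.92 and 8.68 in InvEE arrays and between 9.27 and 12.29 in WT arrays.

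The median difference of the 10 genes between Pap and InvEE arrays was -0.87, against 0.12 for all genes. Dbp stood at -1.86 ± 0.67 (limma adjusted p = 0.111), Tef at -0.97 ± 0.28 (limma adjusted p = 0.0622) and Per1 at -0.94 ± 0.32 (limma adjusted p = 0.0985). Of the 25 probe sets 2 were called lower, 1 of Per2 and 1 of Tef (-2.04 ± 0.40), against 2.83% of all probe sets. When InvEE array 3 was left out, 5 genes were called lower: Dbp (-2.73), Tef (-1.13), Nr1d1 (-1.62), Per1 (-1.20) and Per2 (-1.71), with limma adjusted p between 0.000315 and 0.0438, where 6.38% of all genes were called in either direction. The Pap and InvEE comparisons with WT share the WT arrays, and their values are given side by side only as levels. Over all 12 arrays the cell type markers Krt15 (-2.16), Kcnj8 (-2.14), Notch3 (-1.31) and Fabp4 (-3.07) were called lower in Pap than in InvEE arrays. The fibroblast marker Pdgfrb (0.55) was called higher, and no other marker was called, where 3.04% of all genes were lower and 3.67% higher. The part of these cells in the clock values was not tested.

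InvEE array 3 departed from its group in many, but not all, of the clock genes. Among all 18193 genes, Nr1d1 had the second lowest difference from the mean of InvEE arrays 1, 2 and 4, at -3.78, and Dbp the third lowest, at -3.45. Nr1d2 was 32nd lowest, at -2.28. Per3 (-1.31), Cry2 (-1.15), Per1 (-1.05), Tef (-0.64) and Hlf (-0.43) were lower there too. On their main probe sets Per2 (0.09) and Clock (0.12) lay close to the other arrays. On each dimmer Clock probe set array 3 was the highest InvEE array, at 8.11, 7.65 and 5.3, against means of 7.71, 6.86 and 4.66 in the others. The dimmer Per2 probe sets had 6.47 and 6.78 there, against means of 7.15 and 7.02, and only the first was lowest in array 3. Array 3 held the lowest InvEE value in 8 of the 10 genes, and in 30.6% of all genes. Across the transcriptome 6.46% of genes were more than 1 unit from the mean of the other 3 arrays, against 1.17 to 1.31% for InvEE arrays 1, 2 and 4.

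Arntl, the partner of Clock, ran the other way, with 6.92 in InvEE array 3 and 5.42, 5.51 and 5.02 in arrays 1, 2 and 4, the 183rd highest difference of all genes. A dimmer Npas2 probe set, for a relative of CLOCK, had 9.02 there and a mean of 6.53 in the others, while its main probe set had 7.61 and lay inside the range of the others. Of the 22 other clock genes measured, array 3 lay below all other InvEE arrays in 10, above them in 6 and among them in 6. It held the lowest InvEE value in 30.6% of all genes, and the share in which it held the highest was not counted. Those more than 1 unit under the mean of the others were Wee1 (-1.69), Bhlhe40 (-1.62), Ciart (-1.54), Sirt1 (-1.40) and Rora (-1.06), and those more than 1 over it were Arntl (1.60) and Rorb (1.37). The labels give array 3 the same genotype, age, sex and skin as its group. Its Gapdh difference was 3.37, against 1.62, 1.63 and 1.97 in arrays 1, 2 and 4, and its part was not tested, nor could that of the hour of collection be. Markers of other cells moved too: 8 of 10 keratinocyte genes were lower in array 3 than in every other InvEE array, against 30.6% of all genes, with Krt14 at -1.68. Krt1 (1.08) and Dsp (0.03) lay inside the range of the others, and the list mean of 7.89 was the lowest of the group. Of 3 adipocyte genes 2 were higher there than in the others, Lpl at 2.09 above their mean and Adipoq at a dim 3.96. Fabp4 had 10.64, under 10.83 in InvEE array 1, and the list mean of 9.06 was the highest of the group. The part of these cells in the clock values was not tested.

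**Figure D3:**
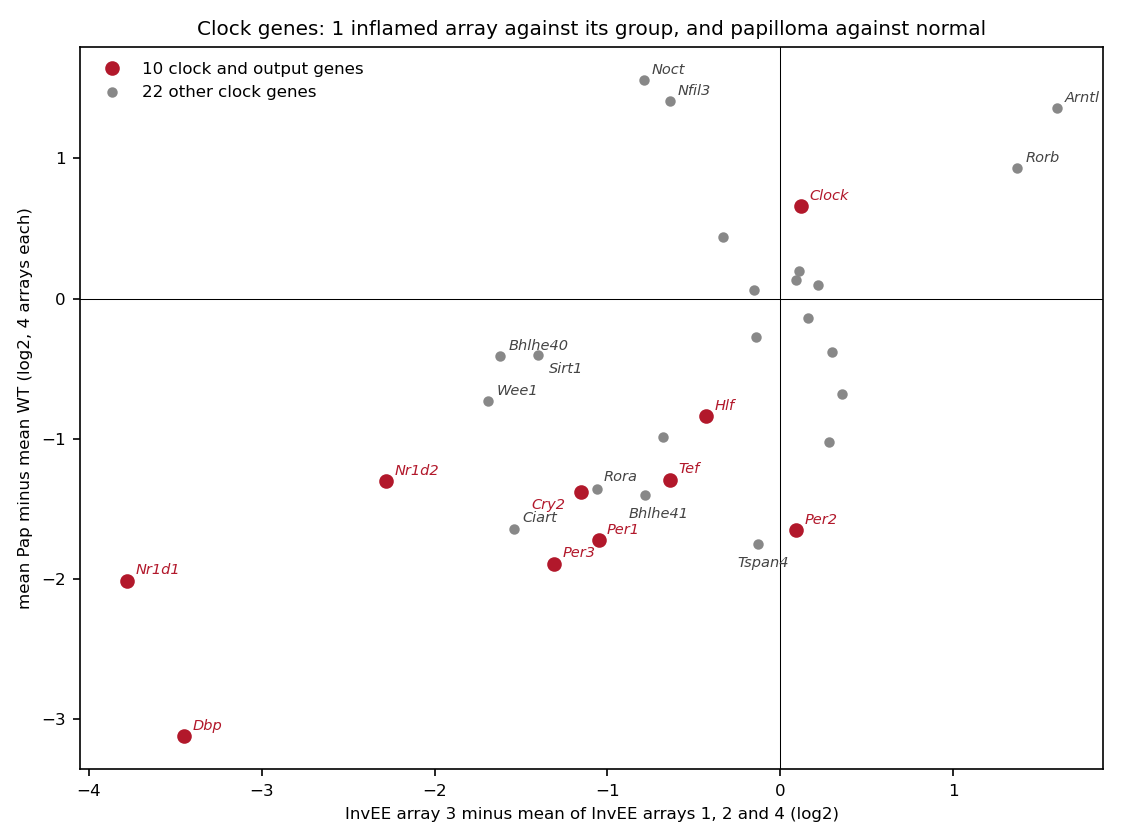
Log2 difference of InvEE array 3 from the mean of InvEE arrays 1, 2 and 4 (horizontal axis) and mean Pap minus mean WT (vertical axis) for the 10 clock and output genes in red and 22 other clock genes in grey. Dbp (-3.45 and -3.12) and Nr1d1 (-3.78 and -2.01) lie at the lower left and Arntl (1.60 and 1.36) at the upper right. Per2 (0.09 and -1.65) is, on its main probe set, lower in Pap but not in array 3.

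InvEE array 3 and the Pap arrays can be set side by side in level only, since the array is 1 sample. Its difference from the Pap mean was -2.16 for Nr1d1, -1.30 for Nr1d2 and -0.72 for Dbp, and 1.80 for Per2 (log2, no test). For Per1, Per3, Hlf, Cry2 and Clock that difference lay between -0.14 and 0.22, and for Tef it was 0.49. The Pap arrays themselves were close together in Nr1d1, with an SD of 0.07, and further apart in Per3, with an SD of 1.42.

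Other clock genes, a list of 24 drawn from general knowledge, had 22 measured members. Against WT, 3 were called lower in Pap arrays and 1 higher, where 4.8% and 4.85% of all genes were, and 18 did not pass. Their median difference was -0.32, against 0.04 for all genes. The list has a positive arm, repressors, nuclear receptors with the D-box repressor, kinases and turnover factors, and associated genes.

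In the positive arm Arntl had 6.0, 7.15, 6.49 and 5.42 in Pap arrays and 4.13, 5.26, 5.16 and 5.06 in WT arrays. Every Pap array lay above every WT array, yet the difference of 1.36 ± 0.44 was not called (limma adjusted p = 0.0787), and its other probe set gave 0.45 ± 0.38. The WT mean of 4.90 was dim. Without InvEE array 3 the main difference was called (limma adjusted p = 0.035). Npas2 had a difference of 0.20 ± 0.21 on its main probe set and 1.75 ± 0.57 on the other, neither called. Arntl2 stood at 0.06.

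Of the repressors, Bhlhe41, which encodes DEC2, had 6.97, 6.47, 6.93 and 7.48 in Pap arrays and 8.61, 8.35, 7.56 and 8.93 in WT arrays. It was lower by -1.40 ± 0.32 (limma adjusted p = 0.0151), with Pap array 4 just under WT array 3. Its other probe set gave -1.07 ± 0.41, not called. The main call was lost with scaling to ribosomal protein genes (-1.19, limma adjusted p = 0.0526) or the Gapdh covariate (-1.48, limma adjusted p = 0.0574). Ciart, the repressor CHRONO, had 7.49, 6.89, 7.67 and 7.76 in Pap arrays and 9.38, 9.78, 9.62 and 7.60 in WT arrays. WT array 4 alone lay in the Pap range, and the difference of -1.64 ± 0.49 was not called (limma adjusted p = 0.0558), whereas without WT array 4 it was (-2.14, limma adjusted p = 0.00602). Cry1 (0.44 ± 0.41) and Bhlhe40 (-0.41 ± 0.36) did not pass.

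Rora, a nuclear receptor that activates Arntl through ROR elements, had 9.32, 9.29, 8.93 and 9.40 in Pap arrays and 10.69, 10.51, 10.40 and 10.77 in WT arrays. It was called lower (-1.36 ± 0.24, limma adjusted p = 0.00361), although its 8 other probe sets gave -0.91 to 0.06 and none of them was called. Nfil3, a repressor at D-boxes, had a difference of 1.41 ± 0.57 that was not called (limma adjusted p = 0.158), with WT arrays from 5.98 to 9.38. Rorb stood at 0.93, and at 0.23 without Pap array 4, whose value of 8.92 was far above the other Pap arrays, which lay between 5.77 and 6.73. Its other probe sets, both dim, gave -0.32 ± 0.34 and -1.33 ± 0.40, neither called. The second of these was called lower in Pap than in InvEE arrays (-2.16 ± 0.40, limma adjusted p = 0.00957 over all probe sets), where the main probe set gave 0.57.

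No kinase or turnover gene was called against WT: Csnk1e stood at -1.02 (limma adjusted p = 0.0613), and Csnk1d, Fbxl21, Btrc and Usp2 between -0.68 and 0.13. The other Csnk1e probe sets went the other way, at 0.35 ± 0.19 and 0.28 ± 0.39, and the other Usp2 probe set gave -1.12 ± 0.62, none called. Among associated genes Tspan4, a tetraspanin, was lower by -1.75 ± 0.40 (limma adjusted p = 0.0162) and Noct, the deadenylase-related nocturnin, was higher by 1.56 ± 0.42 (limma adjusted p = 0.0364), with means of 6.49 in Pap and 4.93 in WT arrays, the WT mean being dim. Tspan4 lost its call with the Gapdh covariate (-1.12, limma adjusted p = 0.138) or with only the Pap and WT groups in the fit (limma adjusted p = 0.0613). Noct lost its call in the latter fit too (limma adjusted p = 0.0579). It was also lost when Pap array 1 or 2 or WT array 1, 2 or 4 was left out. Nampt, Wee1, Sirt1, Timeless and Nono stood between -0.99 and 0.10 and did not pass.

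**Figure D4:**
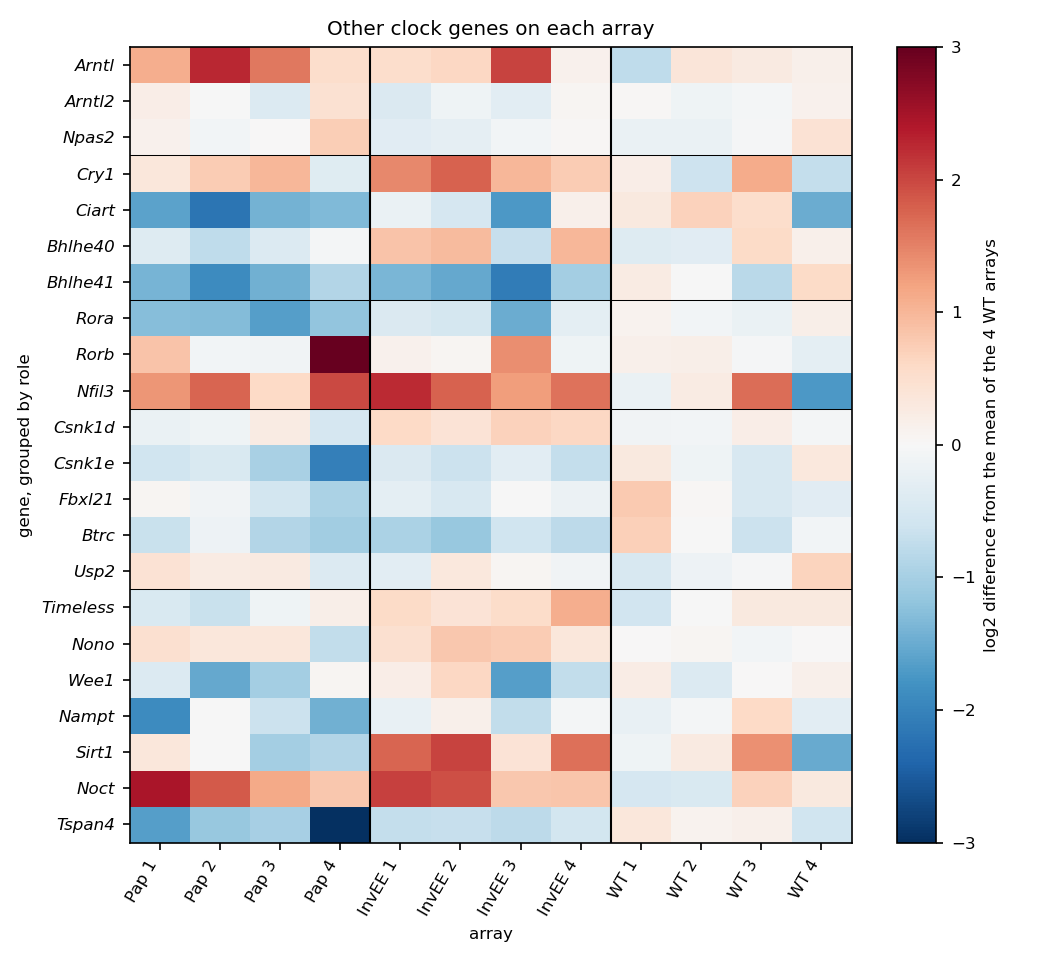
Log2 difference of 22 other clock genes (rows, grouped by role) from the mean of the 4 WT arrays on each Pap, InvEE and WT array (columns). Red is higher and blue lower, and colours stop at 3 units. Ciart, Bhlhe41 and Rora lie below the WT mean on every Pap array and Arntl above it. Bhlhe41 and Rora also lie below it, and Arntl above it, on all InvEE arrays.

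Between InvEE and WT arrays 0 of the 22 genes was called by limma, against 0.533% of all genes, with 10 at an unadjusted p under 0.05, against 15.6% of all genes. Bhlhe41 came nearest, at -1.51 ± 0.32 (limma adjusted p = 0.0616), with all InvEE arrays below all WT arrays, and it was called without Pap array 4 or without WT array 3 (limma adjusted p = 0.0388 and 0.0253). Rora stood at -0.69 ± 0.24, Noct at 1.41 ± 0.42, Cry1 at 1.25 ± 0.41 and Nfil3 at 1.72 ± 0.57. Between Pap and InvEE arrays 2 were called lower, against 3.04% of all genes: Csnk1d (-0.73 ± 0.17, limma adjusted p = 0.0232) and Timeless (-0.92 ± 0.25, limma adjusted p = 0.0455). The other Timeless probe set gave 0.22 ± 0.20, and the call was lost in 16 of 25 alternatives. Csnk1d's fall rests on a probe set marked as able to match several transcripts, and its 1 probe set without such a mark gave 0.12.

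Across the 12 arrays, the gene most like Dbp was Sphk2, a sphingosine kinase, with a Pearson r of 0.995, a description over 12 arrays of 3 groups that themselves differ. Sphk2 and Dbp are neighbours on mouse chromosome 7 whose RefSeq entries overlap, and whether their probe sets measure shared RNA was not tested. Sphk2 had 8.79, 8.25, 9.18 and 8.73 in Pap arrays, 11.03, 10.95, 8.02 and 11.37 in InvEE arrays and 11.77, 11.79, 11.29 and 11.72 in WT arrays. As in Dbp, the Pap arrays and InvEE array 3 were low and the other InvEE and the WT arrays high, but the lowest array was InvEE array 3 for Sphk2 and Pap array 2 for Dbp. Next came Gadd45g (0.948), Hes1 (0.944), Sqstm1 (0.941) and Nrn1 (0.94), and at the other end Steap1 (-0.955), Capza1 (-0.946), Piezo2 (-0.945), Cemip2 (-0.945) and Zfp266 (-0.931). Among clock genes r with Dbp was 0.938 for Rora, 0.918 for Nr1d1, 0.912 for Nr1d2, 0.567 for Per2, -0.473 for Clock and -0.861 for Arntl. Taken as deviations from group means, it was 0.924 for Nr1d1, 0.931 for Nr1d2 and -0.204 for Per2. Without InvEE array 3, over 11 arrays, these were 0.175, 0.659 and -0.415.

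Some signals outside the clock act on clock genes, and their targets were set beside them. Of 7 glucocorticoid receptor targets 4 were called lower in Pap than in WT arrays, where 4.8% of all genes were: Tsc22d3 (-2.62 ± 0.51), Zbtb16 (-1.23 ± 0.35), Errfi1 (-1.17 ± 0.33) and Klf9 (-1.17 ± 0.21). Tsc22d3, known as GILZ, had 7.83, 8.53, 8.53 and 5.69 in Pap arrays and 10.33, 10.49, 10.48 and 9.73 in WT arrays. Between Pap and InvEE arrays Tsc22d3 and Klf9 were called lower, where 3.04% of all genes were. Between InvEE and WT arrays 0 of the 7 was called by limma and 1 had an unadjusted p under 0.05, against 0.533% and 15.6% of all genes. Of 12 immediate early genes 6 were called lower in Pap than in WT arrays (Fos, Fosb, Jun, Junb, Atf3 and Zfp36), against 4.8% of all genes, with Fos at -1.36 ± 0.17. In Pap against InvEE arrays 6 were called lower (Fos, Fosb, Jun, Egr1, Atf3 and Zfp36), against 3.04% of all genes. InvEE array 3 had the lowest InvEE value in all of these 12 genes but Egr1 and Egr2, against 30.6% of all genes. Cirbp, the cold-inducible RNA-binding protein, stood at -1.01 ± 0.46 against WT and was not called (limma adjusted p = 0.222). How much these signals share with the clock values was not tested.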

How the data were processed

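Affymetrix arrays of 12 samples were used. The authors deposited 1 table of log2 values for 45101 probe sets, with a range of 2.08 to 14.955. Per the submitters' processing notes limma was used, with no version given, and how background was corrected and arrays were normalized is not stated in the labels. Because array quartiles differed by up to 0.284, above a limit of 0.1, arrays were quantile normalized. Control probe sets and those with several or no symbols were left out, which left 34945 probe sets. A gene's value was that of its brightest probe set (18193 genes). Group means were compared in limma 3.58.1 (R 4.3.3) over all 12 arrays, with Benjamini-Hochberg adjustment over all genes or, for single probe sets, over all probe sets. The fit was tested on simulated data. The number of arrays limits the precision.

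The 10 genes and all other lists were chosen with earlier results of these data known. The genes named are the 10 on every probe set, all measured genes of the clock list, companion and marker genes that passed, and the 5 highest and 5 lowest correlations with Dbp. Cirbp, the array values of Tsc22d3, the marker genes given as not called, and the companion and marker genes given for InvEE array 3 were named after their values were seen. Some members of these lists are not reported here.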

Additional observations from a re-analysis of the deposited data

Results flagged for a closer look

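For the 32 clock genes, the lowest or highest array of each group was compared with the nearest of the other 3, as a share of the group's range, against the critical value of Dixon's test for 4 arrays. Of 96 groups 7 passed it, and chance gives about 1 in 20. In 5 of the 7 the separate array was InvEE array 3, at the low end: Nr1d1 with a share of 0.989 (7.32 log2 units), Nr1d2 with 0.98 (8.34), Bhlhe40 with 0.92 (9.36), Cry2 with 0.856 (7.82) and Dbp with 0.838 (8.72). These genes share 1 array, so they are not independent. How many of all genes pass the same rule in InvEE array 3 was not counted. That array held the lowest InvEE value in 30.6% of all genes, and 6.46% lay more than 1 unit from the mean of the others. The remaining groups were the Pap arrays of Nono, with array 4 low at 10.13 and a share of 0.886, and the WT arrays of Csnk1d, with array 3 high at 11.53 and a share of 0.853.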

How the results depend on the processing

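In each comparison 25 alternatives were run. Against WT, 5 of the 10 genes were called in Pap arrays. The count was 1 with the Gapdh difference as a covariate, 1 at a threshold of 0.01, 9 without InvEE array 3, Pap array 4 and WT array 4 (chosen after seeing the data), and 4 to 7 when 1 array was left out. Per1 alone kept its call at 0.05 under every alternative. For InvEE against WT the count was 0 throughout, leave-one-out fits included (0 to 0). Between Pap and InvEE, where 1 was called, it was 0 with the spike covariate, 0 at 0.01, 5 with array weights, 6 without the 3 arrays, and 1 to 5 leaving out 1 array. Among the 22 other clock genes, 4 were called in Pap against WT, 2 without probe sets marked _s, _x or _a, 2 with only these groups in the fit, 2 with the Gapdh covariate, 1 at 0.01, and 3 to 6 leaving out 1 array. In InvEE against WT, 0 became 1 with scaling to ribosomal protein genes, 1 with the replicate block, 5 with array weights, and 0 to 1 leaving out 1 array. In Pap against InvEE, 2 became 1 without further normalization, 1 with ribosomal scaling, 1 without marked probe sets, 1 with only these groups and 1 with a trended, robust fit. It became 0 with the mean of all probe sets, 0 with either covariate and 0 at 0.01, 6 with array weights, 5 without the 3 arrays, and 0 to 3 leaving out 1 array. Csnk1d turned to 0.12 without marked probe sets. Same-numbered arrays had deviations over all genes correlated between -0.094 and 0.177, which cannot settle whether the numbers pair samples. The spike control level was highest in array 4 and lowest in array 3 of both the Pap (12.57 and 9.83) and WT groups (12.29 and 9.27). In the InvEE group it was highest in array 1 (8.68) and lowest in array 4 (7.92). With the number as a replicate block the 10 genes had 4, 0 and 1 calls in Pap against WT, InvEE against WT and Pap against InvEE. Ribosomal scaling moved the median of all genes to 0.25, -0.28 and 0.51 in the same order of comparisons, with no change in the counts of the 10 genes. Over all genes, leaving out 1 array gave 1259 to 1792, 0 to 249 and 578 to 1581 calls in that order. For most other alternatives the share of all genes called is not given here, so the changed counts may not be particular to clock genes. The causes of these changes were not tested.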
